A study of Mus musculus with 6 samples.

Results

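The miR-199 and miR-214 group comprised 6 rows of the deposited table of mouse miRNAs: miR-199a-5p, miR-199a-3p, miR-199b-5p, miR-199b-3p, miR-214-5p and miR-214-3p. They were taken by name, as both arms of the miR-214 hairpin and of the miR-199 paralogs, and were 6 of 1251 rows. Their abundance was compared between interscapular brown adipose tissue (BF-EPA, libraries numbered 3, 4 and 5) and inguinal subcutaneous adipose tissue (SUB-EPA, libraries numbered 1, 3 and 8), with 3 small RNA libraries per tissue. All mice were C57BL/6J, were 5 to 6 weeks of age at the start, and ate for 11 weeks a diet in which fat supplied 45% of energy, protein 20% and carbohydrate 35%. Both groups also received the omega-3 fatty acid eicosapentaenoic acid (EPA), at 6.75% per the design text, and were fasted for 4 hours before tissue collection. Diet was therefore the same in both groups, and the contrast is between depots of EPA-fed obese mice. The libraries come from whole tissue, and the labels do not say whether 1 mouse gave more than 1 library.

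MiRNAs are short RNAs cut as a 5p and a 3p arm from a hairpin precursor, and an arm loaded into the silencing complex represses mRNAs that pair with its seed. The miR-199 and miR-214 genes lie antisense to introns of the dynamin genes, and miR-199a-2 and miR-214 are processed from a single long non-coding RNA, Dnm3os. In mouse development this transcript is driven in mesenchyme by the Twist1 transcription factor, and in adult tissue its miRNAs are known from fibroblasts, pericytes and smooth muscle cells. The cluster has been reported to restrain browning of mouse fat through Prdm16 and PGC-1α, regulators of the thermogenic programme.

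The mature sequences of 5 of the 6 arms were found in RefSeq (GRCm38.p6). They are shown because the seed, bases 2 to 8 in capitals, sets which targets an arm recognises and because it decides which arms can be told apart.
miR-199a-5p: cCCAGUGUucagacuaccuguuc
miR-199a-3p: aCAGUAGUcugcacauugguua
miR-199b-3p: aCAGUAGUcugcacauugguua
miR-214-5p: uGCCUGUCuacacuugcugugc
miR-214-3p: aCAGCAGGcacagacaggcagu
The 3p arms of miR-199a and miR-199b were identical over all 22 bases, and their deposited values were the same in all 6 libraries (within 1e-06). They were one measurement entered under 2 names. These 5 sequences carried 4 different seeds, the 3p arms of miR-199a and miR-199b sharing one. Of all other miRNAs with a RefSeq sequence, 1 shared a seed with a member: miR-761, with the seed of miR-214-3p, which was listed at the floor of the table in all 6 libraries.

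The hairpins show where these arms arise. Capitals mark the mature arms that RefSeq annotates in each.
Mir199a-2: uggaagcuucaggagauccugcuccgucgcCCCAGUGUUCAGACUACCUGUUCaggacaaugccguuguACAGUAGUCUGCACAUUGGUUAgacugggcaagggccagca
Mir214: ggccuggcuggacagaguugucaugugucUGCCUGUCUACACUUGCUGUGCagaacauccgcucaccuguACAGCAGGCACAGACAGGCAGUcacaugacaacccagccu
Mir199b: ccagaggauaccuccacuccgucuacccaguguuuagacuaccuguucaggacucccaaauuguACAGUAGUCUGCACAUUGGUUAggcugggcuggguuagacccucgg
Mir199a-2 (chr1:162217814-162217923, plus strand) and Mir214 (chr1:162223368-162223477, plus strand) are 5444 bases apart. Both lie in exons of Dnm3os and opposite an intron of Dnm3 in GENCODE M21 (GRCm38, which is mm10). Mir199b (chr2:32318460-32318569, plus strand) lies opposite an intron of Dnm1. The 5p side of its hairpin is not annotated as mature in RefSeq. It holds a stretch that matches miR-199a-5p but for a single base, with the same seed bases. Mir199a-1 (chr9:21496495-21496564, minus strand), opposite an intron of Dnm2, yields the same 2 mature arms as Mir199a-2. Reads of miR-199a-5p therefore cannot be assigned to chromosome 1 or 9, and reads of the shared 3p arm can come from 3 loci. Only the miR-214 arms are specific to the Dnm3os transcript.

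The deposited values are log2 normalized abundances with a floor of 3.32, a linear value of 10, at which 910 of the 1251 miRNAs stood in all libraries. Between 235 and 273 miRNAs per library were above the floor. The design text gives about 13.8 M mapped reads per sample, but the depth of each library cannot be read from these values, and the 6 columns have nearly the same distribution, so a value states where a miRNA stands within its library. The floor of 10 does not match the 40 added counts of the design text, and the step that set it is not stated, so folds hold on the deposited scale only. All 6 tested miRNAs on a list of brown fat miRNAs were higher in brown fat, and all 5 on a list of inguinal white fat miRNAs were lower. Of all tested miRNAs, 33.5% were higher and 35.7% lower. The lists were chosen with earlier results of these data known, so these counts are not an independent check of the depots. MiR-133a-3p of skeletal muscle varied within both tissues, at 10.32, 17.20 and 12.50 in BF-EPA-3, 4 and 5 and at 10.74, 16.90 and 13.32 in SUB-EPA-1, 3 and 8. SUB-EPA-1 stood apart in miR-205-5p, an epithelial miRNA, at 15.02, against 7.35 in SUB-EPA-3 and 5.74 in SUB-EPA-8. The results below are given with and without these libraries where that changes them.

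The miR-199 arms were far less abundant in brown than in subcutaneous fat, whereas the miR-214 guide arm stood at nearly the same level in both. All 6 members passed the abundance filter, and 5 of 6 were lower in brown fat in limma's moderated test at a Benjamini-Hochberg adjusted p of 0.05, with 0 higher (also 0 at an unadjusted p under 0.05). Counting the identical 3p rows once, this was 4 of 5. The filter used the mean over all 6 libraries. MiR-199b-5p and miR-214-5p, each at the floor in 2 brown libraries, passed it only through their subcutaneous values. For these 2 arms a lower call and a lack of overlap were therefore favoured by the filter. The background was high, since 35.7% of all 269 tested miRNAs were lower in brown fat by the same rule, 33.5% were higher and 69.1% were called in either direction. The median difference was -3.58 for the members, brown minus subcutaneous fat on the log2 scale, against -0.45 for all tested miRNAs. Every brown library lay below every subcutaneous library for all 6 members, as it did for 40.1% of all tested miRNAs, with the reverse for 33.8%.

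**Figure D1:**
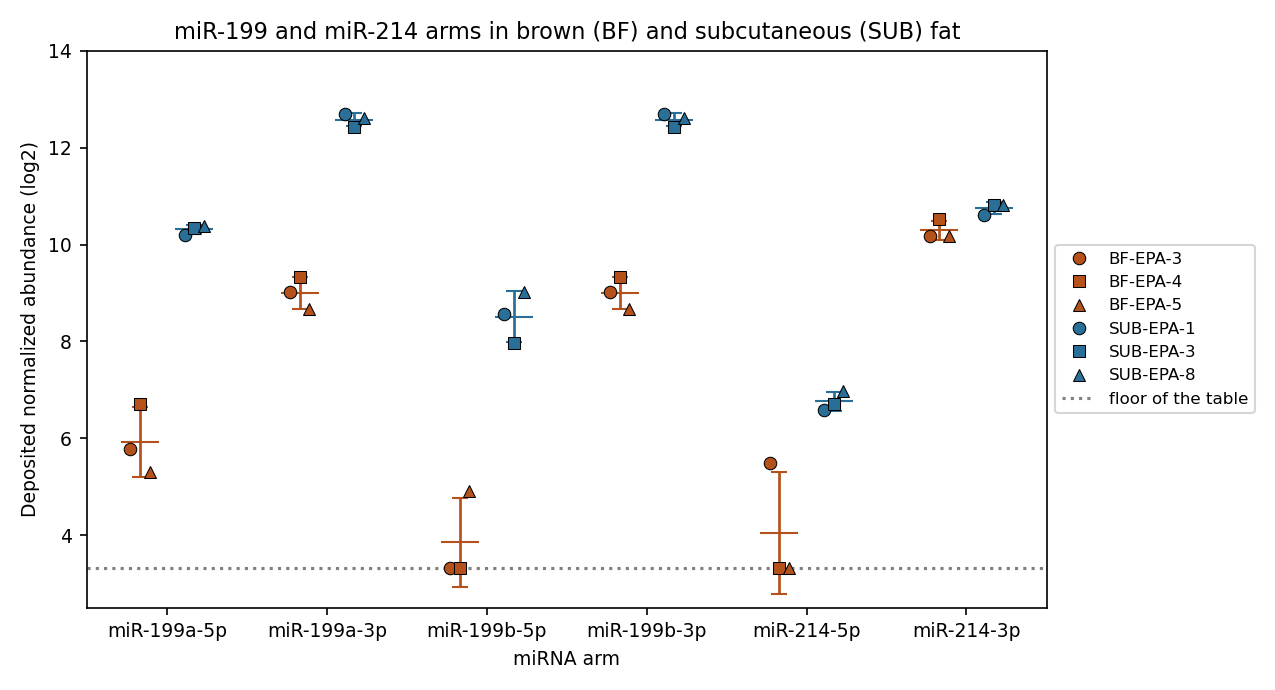
Deposited normalized abundance (log2) of the 6 arms in each library, brown fat (BF-EPA) left and subcutaneous fat (SUB-EPA) right for each arm, with bars for the mean ± SD (n = 3) and a dotted line at the floor of 3.32. The miR-199 arms are widely separated between the tissues, while miR-214-3p stands at 10.18 to 10.53 in brown fat and at 10.61 to 10.82 in subcutaneous fat.

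MiR-199a-3p, the more abundant arm of the miR-199 hairpins, is known to target mTOR and MET in human liver cancer cells. It stood at 9.01, 9.33 and 8.67 in BF-EPA-3, 4 and 5 and at 12.70, 12.43 and 12.62 in SUB-EPA-1, 3 and 8. The highest brown library was 3.10 log2 units below the lowest subcutaneous one, so the groups were far from overlapping. The difference was -3.58 ± 0.21 (SE), with a 95% interval of -4.10 to -3.06 (limma adjusted p = 3.87e-05), which is 11.9-fold lower in brown fat. In rank, it was the 106th to 124th most abundant miRNA of the brown libraries and the 42nd to 46th of the subcutaneous ones. Under the name miR-199b-3p the values are the same. In whole tissue, fewer cells of a type and less RNA per cell cannot be told apart, here and for the other arms.

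MiR-199a-5p, which represses Hif1a in cardiomyocytes and CAV1 in human lung fibroblasts, showed a larger gap at lower abundance. It stood at 5.77, 6.71 and 5.30 in the brown libraries 3, 4 and 5 and at 10.21, 10.34 and 10.38 in the subcutaneous libraries 1, 3 and 8. The groups did not overlap, and the spread was wider in brown fat (SD 0.72) than in subcutaneous fat (SD 0.093), with BF-EPA-4 the highest brown library. The difference was -4.38 ± 0.39 (SE), 95% interval -5.33 to -3.44 (limma adjusted p = 0.000128), or 20.9-fold lower in brown fat. With 40 added to the linear values it was -3.67, against -3.48 for miR-199a-3p. With the floor subtracted and 1 added it was -4.63, against -3.60. The fold and the larger gap thus depend on the treatment of low values. Of the 269 tested miRNAs, 11 had a more negative difference, and 14 had one more negative than that of miR-199a-3p. Some of these, miR-196a-5p among them, were at the floor in every brown library, so these ranks also rest on the floor.

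MiR-199b-5p is named for the chromosome 2 paralog and is known from mouse heart muscle as a repressor of Dyrk1a. Its row had values of its own, but how reads were assigned between it and miR-199a-5p is not stated. MiR-199b-5p was listed at the floor in BF-EPA-3 and BF-EPA-4 and at 4.91 in BF-EPA-5, and stood at 8.56, 7.96 and 9.01 in SUB-EPA-1, 3 and 8. No brown library came near a subcutaneous one. The difference was -4.66 ± 0.57 (SE), 95% interval -6.03 to -3.28 (limma adjusted p = 0.000608). With 2 brown libraries at the floor its size depends on the floor, so no fold is given: it was -2.86 with 40 added to the linear values and -7.01 with the floor subtracted and 1 added, past the threshold in both.

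MiR-214-3p, the guide arm of miR-214, is known to target Ezh2 in mouse myoblasts and Atf4 in mouse osteoblasts. It stood at 10.18, 10.53 and 10.18 in BF-EPA-3, 4 and 5 and at 10.61, 10.82 and 10.82 in SUB-EPA-1, 3 and 8. The groups did not overlap, but the gap between the nearest libraries was 0.081. The difference was -0.46 ± 0.18 (SE), 95% interval -0.89 to -0.024, and did not pass the threshold (limma adjusted p = 0.0586). That is also the median difference of all tested miRNAs, from which it departed by -0.0029. Median-of-ratios scaling moved the median of all tested miRNAs from -0.45 to -0.086, and miR-214-3p then differed by -0.036 (adjusted p = 0.86). Without BF-EPA-4 the difference was -0.57 (adjusted p = 0.0229), and without SUB-EPA-1 it was -0.53 (adjusted p = 0.0441).

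MiR-214-5p, usually the less abundant arm of its hairpin, was listed at the floor in BF-EPA-4 and BF-EPA-5 and at 5.49 in BF-EPA-3, and stood at 6.59, 6.71 and 6.98 in SUB-EPA-1, 3 and 8. The groups did not overlap, and the 1 brown library above the floor was 1.10 below the lowest subcutaneous library. The difference was -2.72 ± 0.68 (SE), 95% interval -4.36 to -1.07 (limma adjusted p = 0.0113). Its size moved with the treatment of the floor, at -1.32 with 40 added and -4.91 with the floor subtracted and 1 added, and the call was lost without BF-EPA-4 and SUB-EPA-3, the libraries highest in miR-133a-3p (-2.38, adjusted p = 0.0946).

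**Figure D2:**
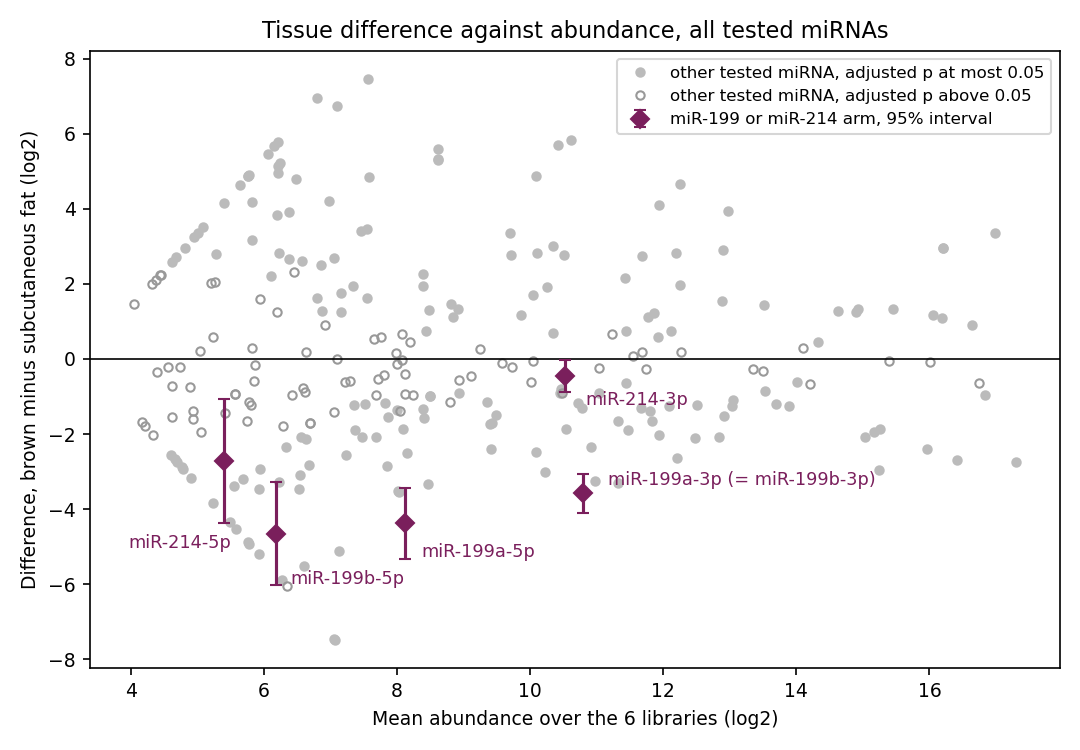
Difference between brown and subcutaneous fat (log2, brown minus subcutaneous) against mean abundance over the 6 libraries (log2) for the 269 tested miRNAs, with the miR-199 and miR-214 arms as diamonds with 95% intervals. The miR-199 arms lie between -4.66 and -3.58, and miR-214-3p lies at -0.46, beside many miRNAs of similar abundance.

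The order of the arms by level was not the same in the 2 tissues. In every brown library the order was miR-214-3p, miR-199a-3p and miR-199a-5p from high to low, and in every subcutaneous library miR-199a-3p came first, then miR-214-3p and miR-199a-5p. In subcutaneous fat the last 2 of these averaged 10.75 ± 0.13 and 10.31 ± 0.093 (SD, n = 3), a gap wider than either SD. The lowest arms were miR-214-5p and miR-199b-5p. In brown fat they were within their spread of each other, at 4.04 ± 1.25 and 3.85 ± 0.92, and in subcutaneous fat miR-199b-5p was the higher, at 8.51 ± 0.53 against 6.76 ± 0.20 for miR-214-5p (SD, n = 3). Mature miRNAs of 22 or 23 bases are each read whole, so these levels were compared without a correction for length, though arms can differ in how well they are captured in a library. Differences between arms within a library were therefore compared between the tissues, where a capture bias common to both would cancel. A bias that differs between the tissues would not. The slope on GC content (described below) of values centred on each miRNA's mean was 0.061 to 0.070 log2 units per percentage point in the brown libraries. In the subcutaneous libraries it was -0.079 to -0.047. Because of the centring, the slopes of the 6 libraries balance out, so their opposite signs only restate the slope of the tissue difference. Whether capture differed between the tissues was not tested.

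MiR-214-3p exceeded miR-199a-3p by 1.17, 1.20 and 1.51 log2 units in BF-EPA-3, 4 and 5, and was below it by values of -2.09, -1.60 and -1.80 in SUB-EPA-1, 3 and 8. The sign thus turned between the tissues in every library. The tissues differed by 3.12 ± 0.18 (SE), 8.7-fold, in the ratio of these 2 arms (exact two-sided permutation test, p = 0.1, the smallest that 3 libraries against 3 allow, adjusted p = 0.133 over 4 pairs). No brown value of this ratio came near a subcutaneous one. Mir199a-2 shares the Dnm3os transcript with Mir214, but how much of miR-199a came from Mir199a-2 cannot be read from the mature arms.

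The 5p and 3p arms also stood apart by different amounts. For miR-199a the comparison is not within a single hairpin, since the 3p value also holds reads of Mir199b. MiR-199a-5p was below miR-199a-3p by -3.08 ± 0.41 in brown and -2.27 ± 0.21 in subcutaneous fat (SD, n = 3), ratios of 8.43 and 4.82 in favour of the 3p arm. The tissues did not overlap, with -3.24, -2.61 and -3.37 in BF-EPA-3, 4 and 5 and -2.49, -2.08 and -2.24 in SUB-EPA-1, 3 and 8, a difference of -0.81 ± 0.26 (SE). With 40 added to the linear values this difference was -0.19 (exact permutation p = 0.2). MiR-214-5p was below miR-214-3p by -4.69, -7.20 and -6.86 in the brown libraries, of which the last 2 are bounds set by the floor, and by -4.02, -4.11 and -3.85 in the subcutaneous ones. The tissue difference was -2.26, and -0.87 with 40 added. As deposited, both comparisons reached the same smallest p of 0.1 in the exact permutation test (adjusted p = 0.133). The 5p arms of the 2 paralogs gave no separation: miR-199b-5p was below miR-199a-5p by -2.08 ± 1.54 in brown and -1.80 ± 0.52 in subcutaneous fat (exact permutation p = 0.8), with 2 brown values resting on the floor. The sign of this tissue difference turned without BF-EPA-4 (0.38) and with 40 added (0.81).

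**Figure D3:**
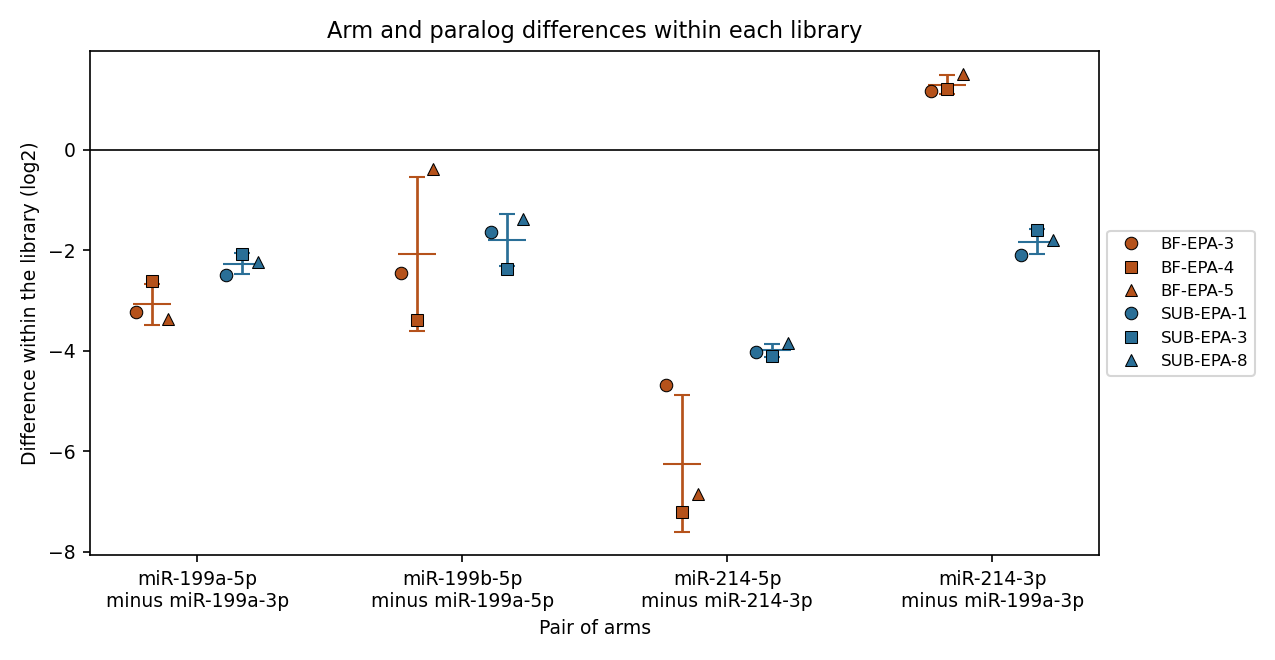
Difference between 2 arms within each library (log2) for 4 pairs, brown fat (BF-EPA) left and subcutaneous fat (SUB-EPA) right, with bars for the mean ± SD (n = 3). MiR-214-3p minus miR-199a-3p is above 0 in all 3 brown libraries (1.17 to 1.51) and below 0 in all 3 subcutaneous libraries (-2.09 to -1.60).

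Base composition moved with the tissue difference across the table and differed between the members. The mature GC content was 40.9% for miR-199a-3p, 52.2% for miR-199a-5p, 54.5% for miR-214-5p and 59.1% for miR-214-3p. Over the 229 tested miRNAs with a RefSeq sequence, the difference between brown and subcutaneous fat correlated with GC content (Pearson's r = 0.52, a slope of 0.13 log2 units per percentage point, a description across miRNAs that share their 6 libraries). With each library's GC trend taken out, miR-199a-3p differed by -2.06 (limma adjusted p = 0.000461), miR-199a-5p by -4.33 (0.000201), miR-214-5p by -2.97 (0.00807) and miR-214-3p by -1.31 (0.00083). The line taken out of each library includes its intercept, so these values are relative to what the line gives at an arm's GC content. On that scale all 4 were lower in brown fat, miR-214-3p included. The gap between miR-214-3p and miR-199a-3p in the tissue difference was 0.75 after this step, against 3.12 in the deposited values. The gap between the 2 arms of miR-199a was -2.27, against -0.81 as deposited. MiR-199b-5p had no mature sequence in RefSeq, so the GC trend was not removed from it.

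**Figure D4:**
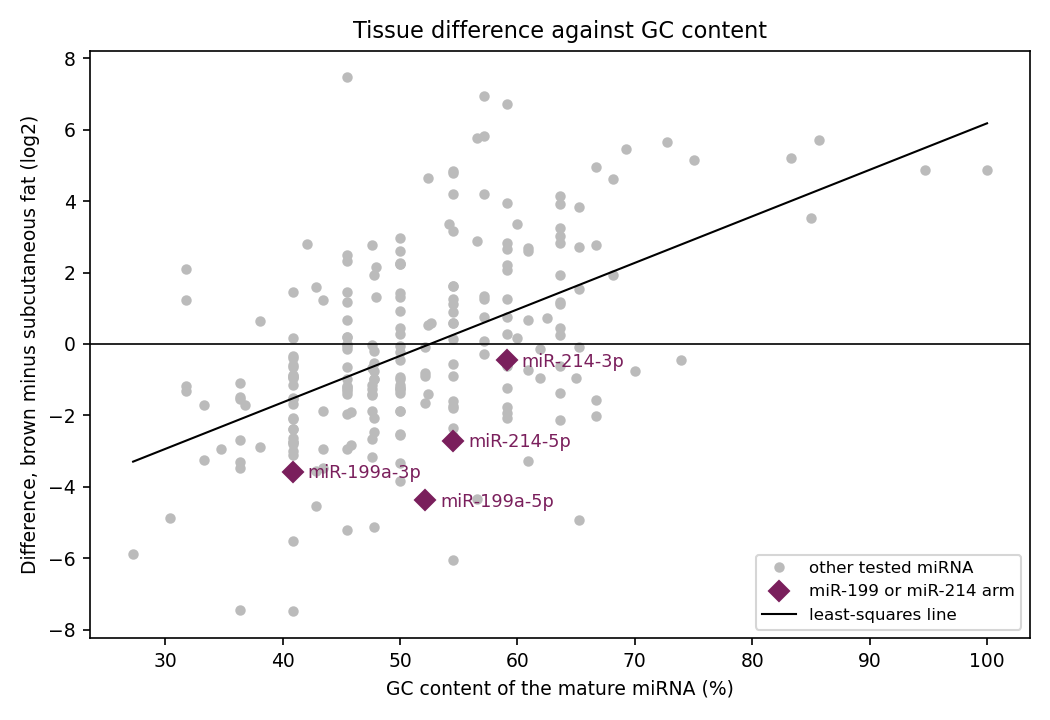
Difference between brown and subcutaneous fat (log2, brown minus subcutaneous) against the GC content of the mature miRNA (%) for 229 tested miRNAs, with a least-squares line and the 4 distinct miR-199 and miR-214 arms that have a RefSeq mature sequence as diamonds. All 4 lie below the line, and miR-199a-3p, at 40.9% GC, and miR-214-3p, at 59.1%, lie far apart along it.

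The miRNAs closest to each member in pattern were found as the smallest root mean square (RMS) distance between centred log2 profiles over the 6 libraries. Closest to miR-199a-3p was miR-195a-5p, of the miR-15 and miR-16 seed family, at a distance of 0.27, where the median over all tested miRNAs was 1.87. Its level was 6.25 ± 0.47 in brown and 9.81 ± 0.19 in subcutaneous fat (SD, n = 3). MiR-26b-5p (0.31) and miR-130a-3p, a repressor of Pparg (0.35), came next. For miR-199a-5p the closest were miR-138-5p (0.50), miR-195a-5p (0.54) and miR-335-5p (0.54), and for miR-199b-5p miR-223-3p (0.49), miR-224-5p (0.61) and miR-335-5p (0.65). All of these were lower in brown fat, a direction set by their choice as neighbours, and miR-138-5p, miR-224-5p and miR-335-5p were listed at the floor in all 3 brown libraries. MiR-214-3p had other neighbours, miR-151-5p (0.13), let-7d-5p (0.16) and miR-339-3p (0.18), of which let-7d-5p differed by -0.60. The neighbours of miR-214-5p were miR-21a-5p (0.55), miR-1843b-5p (0.60) and miR-22-5p (0.64). Among the members, miR-199a-5p and miR-199a-3p were 0.48 apart, while miR-214-3p was 1.38 from its own 5p arm and 1.57 from miR-199a-3p.

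Other miRNAs of the stroma were also mostly lower in brown fat. Of 15 listed arms known from fibroblasts and smooth muscle cells, 14 were tested, 10 were lower and 1 was higher, with a median difference of -1.86, where 35.7% of all tested miRNAs were lower and 33.5% higher. Of the lower arms, miR-152-3p and miR-29b-3p were at the floor in every brown library and miR-145a-3p in BF-EPA-3 and BF-EPA-5. These passed the filter only through their subcutaneous values, which favoured a lower call, and are named after their values were seen. The call of miR-145a-3p was lost without BF-EPA-3 (limma adjusted p = 0.0521) or BF-EPA-5 (0.0517). MiR-29c-3p, a repressor of collagen mRNAs, stood at 5.49, 3.32 and 5.60 in BF-EPA-3, 4 and 5 and at 7.68, 8.39 and 8.73 in SUB-EPA-1, 3 and 8 (-3.46 ± 0.69 SE, limma adjusted p = 0.00473), with BF-EPA-4 at the floor. With the GC trend removed its difference was -1.35 (limma adjusted p = 0.115) and that of miR-29b-3p was -0.61 (0.272). That of miR-29a-3p turned from -0.87 as deposited (0.00583) to 0.65 (0.0141), higher in brown fat relative to the trend only. The last 2 arms are named after their values were seen. Over the 10 of 14 tested arms with a sequence, the median difference was then -0.79. Without GC removal, the lower call of miR-29a-3p also failed with median-of-ratios scaling (-0.44, limma adjusted p = 0.0673). It failed too without BF-EPA-4 and SUB-EPA-3 together (-0.92, 0.0502). MiR-21a-5p, known from activated fibroblasts, differed by -3.29 ± 0.45 (SE, adjusted p = 0.00103). The 1 higher arm was miR-125b-5p (0.45 ± 0.14 SE, adjusted p = 0.026), named after its value was seen. Its call was lost without BF-EPA-4, SUB-EPA-3 or SUB-EPA-8. The summed linear value of the list, above the floor, was 157000 to 192000 in the brown and 377000 to 417000 in the subcutaneous libraries. This sum is weighted to its most abundant arms and does not describe the others. Of these, miR-22-3p, not called (adjusted p = 0.0633), stood at 16.18 to 16.72 (log2) in brown and 16.72 to 17.58 in subcutaneous libraries. MiR-10b-5p stood at 13.51 to 13.94 and at 16.51 to 16.90. Both are named after their values were seen. On this list 0 of the 14 tested arms had a more negative difference than miR-199a-5p, and 12 had a more negative one than miR-214-3p.

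MiRNAs of other cell types moved with the tissues as well, and their part in the miR-199 and miR-214 differences was not tested. Of 4 tested leukocyte miRNAs, 3 were lower in brown fat and 1, miR-150-5p of lymphocytes, was higher, while miR-142-3p and miR-155-5p were listed at the floor in all 6 libraries. MiR-223-3p of myeloid cells (-5.51 ± 0.56 SE, adjusted p = 0.000232) and miR-146a-5p (-3.10 ± 0.94 SE, adjusted p = 0.0242) had the largest differences. The first was at the floor in BF-EPA-3 and BF-EPA-4 and passed the filter only through its subcutaneous values, which favoured a lower call. The second was at the floor in BF-EPA-4. The call of miR-146a-5p was lost without BF-EPA-3 (0.0618), BF-EPA-4 (0.0687), SUB-EPA-1 (0.0693) or SUB-EPA-8 (0.0861). The list summed to 33400 to 45400 linear units in brown and 15100 to 20200 in subcutaneous libraries. Nearly all of this sum was miR-150-5p, at 15.02 to 15.47 (log2) in brown and 13.69 to 14.24 in subcutaneous libraries, so it does not describe the 3 lower arms. Endothelial miR-126 was lower in both tested arms, with miR-126-3p at -2.04 ± 0.17 (SE, adjusted p = 0.000106) and miR-126-5p at -0.91 ± 0.23 (SE, adjusted p = 0.0114). For miR-126-5p, median-of-ratios scaling gave -0.49 with an adjusted p of 0.101, and the call also failed without BF-EPA-4 and SUB-EPA-3 together (-0.97, 0.071). This pair summed to 3220 to 3800 units in brown and 9900 to 12600 in subcutaneous libraries. Of 2 tested red cell miRNAs, miR-486-5p was higher (2.95 ± 0.25 SE, adjusted p = 0.000118) and miR-451a lower (-1.49 ± 0.33 SE, adjusted p = 0.00662, but 0.63 and 0.0597 with the GC trend removed), and both miR-144 arms were listed at the floor throughout.

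Skeletal muscle miRNAs varied between the libraries of both tissues, and epithelial miRNAs mostly between the subcutaneous libraries. Of 3 tested muscle miRNAs 0 were called in limma's test, and 0 had an unadjusted p under 0.05. Their sum ranged from 1260 to 151000 units in brown and from 1700 to 123000 in subcutaneous libraries, with miR-1a-3p at the floor in all 6. MiR-206-3p was above the floor in BF-EPA-4 alone, at 7.71, and miR-133b-3p stood at 8.96 in BF-EPA-4, 8.94 in SUB-EPA-3 and 6.78 in SUB-EPA-8. Without BF-EPA-4 and SUB-EPA-3, miR-199a-3p differed by -3.82 (limma adjusted p = 0.00175), miR-199a-5p by -4.76 (0.00234) and miR-199b-5p by -4.67 (0.0105). Of 5 tested epithelial miRNAs limma called 0, with 1 at an unadjusted p under 0.05, and the list summed to 267 to 387 units in brown and 299 to 39500 in subcutaneous libraries. MiR-205-5p differed by -6.05 ± 2.30 (SE, limma adjusted p = 0.0536) and miR-429-3p by -1.69 ± 1.43 (SE, adjusted p = 0.32). Of these, miR-205-5p was listed at the floor in every brown library and above it in every subcutaneous one. Without SUB-EPA-1, the library high in them, miR-199a-3p differed by -3.52 (adjusted p = 0.000342) and miR-199a-5p by -4.44 (0.00153).

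The 6 tested brown fat miRNAs differed in the opposite direction to the members, and 4 of 5 inguinal white fat miRNAs had a more negative difference than miR-199a-5p. These 4 were at the floor in all 3 brown libraries and passed the filter only through their subcutaneous values. Their differences, and so this ranking, rest on the floor. The remaining inguinal arm, miR-10a-5p, named after its value was seen, differed by -1.86 ± 0.29 (SE, limma adjusted p = 0.00183), less than the miR-199 arms. With the GC trend removed its difference was -0.68 (limma adjusted p = 0.0567). Among brown fat miRNAs, miR-193b-5p (6.74 ± 0.44 SE, limma adjusted p = 4.94e-05) and miR-455-3p (5.83 ± 0.77 SE, adjusted p = 0.000918) had the largest excess in brown fat. The first was at the floor in SUB-EPA-1 and SUB-EPA-8, so the size of its difference rests on the floor and the filter favoured a higher call. Among inguinal white fat miRNAs, miR-196a-5p, encoded in Hox clusters, and miR-335-3p, encoded in Mest, were listed at the floor in all 3 brown libraries and stood at 10.81 ± 0.11 and 10.78 ± 0.40 in subcutaneous fat (SD, n = 3). The miR-199 arms, by comparison, were above the floor in brown fat for the 3p arm and miR-199a-5p, and in 1 of 3 brown libraries for miR-199b-5p.

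**Figure D5:**
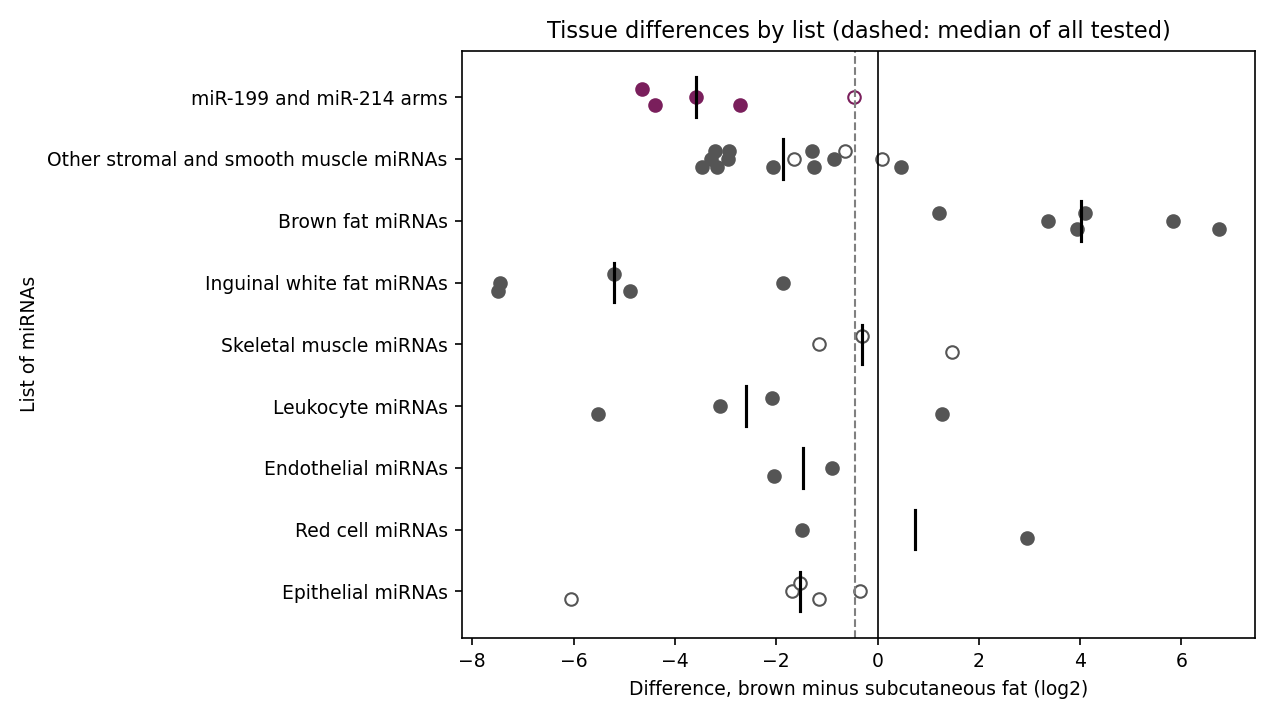
Differences between brown and subcutaneous fat (log2, brown minus subcutaneous) of tested miRNAs by list, with filled circles for a limma adjusted p of at most 0.05, open circles above it, a bar at each list's median and a dashed line at the median of all tested miRNAs (-0.45). The miR-199 and miR-214 arms, with the identical 3p rows drawn once, have a median of -3.58, and the other stromal miRNAs one of -1.86.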

How the data were processed

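Small RNA libraries of 3 brown and 3 subcutaneous fat samples were compared. The authors deposited log2 normalized values, mapped to mm10 and scaled to total usable reads with 40 counts added, per the series' design text. No source used here names the aligner or the miRNA annotation. The values have a floor of 3.32, and 64% of the 100 highest ranks hold a single value in all libraries, neither of which the described scaling and added counts would give, and no source used here names the step that did. No counting intervals are given, since per-library depth is not known, and p-values reflect only sample-to-sample spread, which may be technical, since the labels do not tie samples to separate mice.

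Values were tested as deposited with limma 3.58.1 (R 4.3.3, mean-variance trend, Benjamini-Hochberg over all tested miRNAs). A miRNA was tested where its mean linear value above the floor was at least 24.05 units, a fixed share of the mean library total. Differences between arms used exact permutation tests in Python 3.11.15, with pandas 2.3.3, numpy 2.4.6 and matplotlib 3.10.9. GC content came from RefSeq mature sequences for 229 of 269 tested miRNAs (85.1%). The fit was tested on simulated data.

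The members and lists were chosen with earlier results of these data known. Named beside the members were the 3 nearest profiles of each, the 2 largest differences in each list and miRNAs sharing a seed. Alternatives covered scaling, pseudocount, filter, variance model, omitted libraries, identical rows and GC content. Omitting BF-EPA-4 and SUB-EPA-3, the libraries highest in miR-133a-3p, and GC removal for arm differences and lists were added after seeing the data.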

Additional observations from a re-analysis of the deposited data

How the results depend on the processing

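Under every alternative that could be run, the miR-199 arms and miR-214-5p kept their direction, and the number of members called lower stayed between 4 and 6. The miR-214-5p call was lost without BF-EPA-4 and SUB-EPA-3, highest in miR-133a-3p (-2.38, adjusted p = 0.0946). MiR-214-3p, which missed the threshold (adjusted p = 0.0586), was called with the floor subtracted and 1 added (-0.46, adjusted p = 0.0465), with the filter 10 times as strict (-0.46, adjusted p = 0.0498) and with the GC trend removed (-1.31, adjusted p = 0.00083), and ranged from -0.57 to -0.40 when 1 library was left out. The tissue difference of miR-199b-5p minus miR-199a-5p turned to 0.81 with 40 added and to 0.091 without those 2 libraries, and ranged from -1.12 to 0.38 with 1 library left out. With the stricter filter, which tests 157 miRNAs, 58 of all tested miRNAs were higher, 6 stromal and 3 inguinal arms were lower, and 1 epithelial arm was lower. MiR-199b-5p and miR-214-5p were not tested there. Median-of-ratios scaling left 1 endothelial arm lower, as did the omission of BF-EPA-4 and SUB-EPA-3, after which 0 stromal arms were higher. With the GC trend removed 1 epithelial arm and 4 inguinal arms were lower. No count with the GC trend removed is given for the stromal list, of which 10 of 14 tested arms had a sequence, though miR-29a-3p turned to 0.65 (adjusted p = 0.0141) there, nor for the brown, muscle, leukocyte, endothelial and red cell lists, of which too few had one. The difference of miR-199a-5p minus miR-199a-3p was -0.19 with 40 added. With 1 library left out, 0 to 1 stromal arms were higher and 0 to 1 epithelial arms were lower. The cause of these changes was not tested. No paired analysis was possible because the tissues share only the number 3. Leaving out both libraries numbered 3 gave adjusted p-values of 0.00505 for miR-199a-3p and 0.0112 for miR-199a-5p. Unknown depth limits what can be said of arms at the floor.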
